A study of Mus musculus with 8 samples.

Results

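The miRNAs described here are both arms of miR-150, miR-342 and miR-155, a set known for its expression in lymphocytes. The 6 arms (mmu-miR-150-5p, mmu-miR-150-3p, mmu-miR-342-3p, mmu-miR-342-5p, mmu-miR-155-5p and mmu-miR-155-3p, written without the species prefix from here on) were found by exact match of the name printed in the scanner files, and all 6 were among the 1881 mouse miRNAs on the array. Of the 6, miR-150-5p, miR-342-3p and miR-155-5p were measurable in kidney and were tested among 316 miRNAs. The 3 opposite arms, miR-150-3p, miR-342-5p and miR-155-3p, were not detected on any array.

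Total RNA was prepared from whole kidney of male mice aged 28 weeks, and 100 ng of it was labelled with Cy3 for a single-colour Agilent array of mouse miRNAs. The db/db group had 4 samples of the strain given as C57BLKS/J Iar -+Leprdb/+Leprdb. Loss of the leptin receptor's function makes db/db mice obese and diabetic. The control group had 4 samples of the strain given as C57BLKS/J Iar -m+/m+. The titles call the controls dbm and the source field calls them m/m, so whether they carried a db allele was not settled. Since no label ties each array to its own animal, the p-values cover the spread among these 4 and 4 samples only, and that spread may be technical.

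A miRNA is cut from a hairpin precursor that carries an arm on each side of its stem, named 5p and 3p. Usually one arm is kept by the Argonaute protein and the other is degraded, and the kept arm finds its mRNA targets mainly through the seed, bases 2 to 8 of the mature miRNA. miR-150 is high in mature resting B and T cells and restrains the transcription factor Myb in developing lymphocytes. miR-342 lies within Evl, a gene for a regulator of the actin cytoskeleton, and is also expressed in lymphoid cells. miR-155 is made from the non-coding transcript Mir155hg, also called Bic, which is induced when B cells, T cells and macrophages are activated. In kidney these miRNAs are read mainly as signals of resident or infiltrating leukocytes, although other cells can express them.

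Mature sequences were held in the RefSeq table (GRCm38.p6) for 5 of the 6 members. They are shown because the tested and the undetected arms of a hairpin are different molecules with different seeds. Each is printed 5′ to 3′ with the seed in capitals.
miR-150-3p: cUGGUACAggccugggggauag
miR-342-3p: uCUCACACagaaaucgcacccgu
miR-342-5p: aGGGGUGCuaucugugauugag
miR-155-5p: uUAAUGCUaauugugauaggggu
miR-155-3p: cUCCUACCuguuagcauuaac
No seed was shared among these 5, and none of the other mature miRNAs among the 1679 names in the table had any of these seeds. The hairpins of miR-342 and miR-155 are given with both mature arms in capitals, to show the measured and the undetected arm of each within the same precursor.
Mir342: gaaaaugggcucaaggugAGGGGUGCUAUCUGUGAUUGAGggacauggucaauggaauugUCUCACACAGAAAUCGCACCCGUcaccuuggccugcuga
Mir155: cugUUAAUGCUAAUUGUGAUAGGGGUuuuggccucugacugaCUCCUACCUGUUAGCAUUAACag
In Mir342 the arm measured in kidney is the second one, and in Mir155 it is the first. On GRCm38.p6, Mir342 lies at chr12:108658620-108658718 within Evl and Mir155 at chr16:84714140-84714204 within Mir155hg, both on the plus strand. Mir150 lies at chr7:45121757-45121821 outside other annotated genes.

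Each array carried 58594 spots, of which 56430 belonged to 4415 probes of miRNAs, and no miRNA spot was saturated. The number of miRNAs detected was 289 to 358 on db/db arrays and 305 to 352 on control arrays. Correlations of log2 values between arrays, across miRNAs that are not independent replicates, ran from 0.989 to 0.997 for arrays of the same group and from 0.964 to 0.979 for arrays of different groups. All 8 arrays lay on 1 slide, the db/db samples in row 2 and the controls in row 1, so the effects of genotype and of the row on the slide cannot be told apart. The tubular miRNAs miR-192-5p, miR-194-5p and miR-204-5p, which mark kidney tissue, were detected on all 8 arrays.

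Of the 3 tested arms, miR-150-5p and miR-342-3p fell in db/db kidneys, and miR-155-5p did not pass the test. miR-342-3p was 1.42-fold lower. The fitted difference for miR-150-5p was 2.62-fold, but it was detected on 1 of 4 db/db arrays, so that the size, unlike the direction, depended on how low signals were treated. Among all 316 tested miRNAs, 41.8% were called in either direction, 17.4% lower and 24.4% higher in db/db kidneys (limma fitted to all tested miRNAs, threshold 0.05 after Benjamini-Hochberg adjustment). The split of 77 higher and 55 lower calls depended on the scaling, with 100 and 28 under no scaling, 138 and 28 with spike-in scaling, and 68 and 78 with quantile normalization. The median change was -0.51 on the log2 scale over the 3 tested arms and -0.02 over all tested miRNAs. For 2 of the 3 arms every db/db value lay below every control value, which was so for 16.8% of all tested miRNAs, and 41.5% were without overlap in either direction. To be tested, a miRNA had to be detected on all 4 arrays of a group, which miR-150-5p met through the controls alone. Its interval and p-value, and the count and the median over the tested arms, are therefore descriptions. In whole-kidney RNA, fewer cells of a type and less RNA per cell cannot be told apart.

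**Figure D1:**
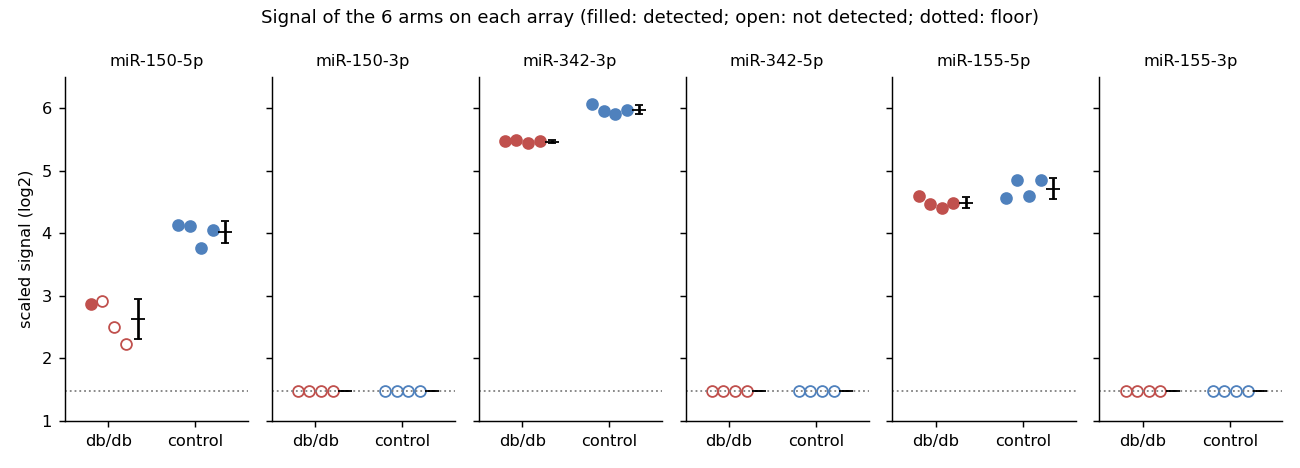
Scaled log2 signal of each of the 6 arms on each array, with the 4 db/db samples left of the 4 controls, the mean and SD as a black mark and bar, and the floor of 1.48 as a dotted line. Filled points are arrays on which the arm was detected; miR-150-5p was detected on 1 db/db array and on 4 control arrays, and the 3 opposite arms lay at the floor throughout.

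miR-150-5p, the arm high in resting lymphocytes, had scaled signals of 7.29, 7.56, 5.67 and 4.69 in db/db kidneys, against 17.6, 17.4, 13.6 and 16.6 in control kidneys. Every db/db value was below every control value, and the highest db/db value was well under the lowest control value. On the log2 scale it averaged 2.63 ± 0.32 in db/db kidneys and 4.02 ± 0.17 in control kidneys (SD, n = 4 each). The change was -1.39 ± 0.16 (SE), with a 95% interval of -1.76 to -1.01 (limma with Benjamini-Hochberg adjustment, adjusted p = 0.000424). Since this arm entered the test through the controls alone, the interval and the p-value are descriptions. The interval covers the spread among arrays under the background treatment used here, not the spread between treatments.

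The signal of miR-150-5p was dim. Feature Extraction called it detected on 1 db/db array, replicate 1, and on all 4 control arrays. Its fitted change was -0.24 after normexp background correction with the usual offset of 50 added to every spot, and -0.47 after normexp without an offset, a setting chosen after seeing the data. It was -1.78 in the gene total signal and -4.61 in the authors' value table, in which undetected values carry a fill. It passed the threshold under each of these 4 treatments, and it was lower in db/db kidneys in all of them. This arm entered all of these tests through the controls alone, so the passes are descriptions.

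Both probes of miR-150-5p, which the array design maps to chromosome 7, 52377139 to 52377153 (mm9), were lower in db/db kidneys. Probe A_54_P1097 averaged 3.42 ± 0.26 in db/db kidneys and 4.65 ± 0.13 in control kidneys on the log2 scale (SD, n = 4 each). Of its 60 spots in each group, 1 was well above background in db/db kidneys and 52 in control kidneys. Probe A_54_P1096 averaged 1.56 ± 0.15 in db/db kidneys, with 3 of the 4 arrays at the floor, and 2.86 ± 0.38 in control kidneys. Of its spots, 1 of 60 in db/db kidneys and 0 of 60 in control kidneys were well above background. The groups did not overlap for either probe, and the share of all probes without overlap was not computed.

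miR-342-3p, the arm from the hairpin within Evl, had scaled signals of 44.4, 45.0, 43.4 and 44.4 in db/db kidneys, against 67.4, 62.1, 59.9 and 62.9 in control kidneys. The db/db arrays were nearly equal and all lay below the controls. On the log2 scale it averaged 5.47 ± 0.02 in db/db kidneys and 5.98 ± 0.07 in control kidneys (SD, n = 4 each). The change was -0.51 ± 0.05 (SE), with a 95% interval of -0.61 to -0.40 (limma across all tested miRNAs, Benjamini-Hochberg adjusted p = 0.000137). Its place from the lowest change was 28 of 316, and it was detected on all 8 arrays.

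The probes of miR-342-3p and miR-155-5p are shown because each miRNA is read by a pair of probes that differ by a single base, in capitals, at the 3′ end of the longer one.
A_54_P2573 (miR-342-3p): acgggtgcgatttctg
A_54_P2574 (miR-342-3p): acgggtgcgatttctgT
A_54_P2336 (miR-155-5p): acccctatcacaattag
A_54_P2337 (miR-155-5p): acccctatcacaattagC
Each is complementary to the 3′ part of its mature miRNA. A_54_P2573 covers bases 8 to 23 of miR-342-3p and A_54_P2574 bases 7 to 23. A_54_P2336 covers bases 7 to 23 of miR-155-5p and A_54_P2337 bases 6 to 23. Both probes of miR-342-3p were well above background at 60 of 60 spots in db/db and 60 of 60 in control kidneys, and gave changes of -0.50 and -0.51 on the log2 scale.

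miR-155-5p, the arm induced on lymphocyte and macrophage activation, had scaled signals of 24.3, 22.1, 21.3 and 22.5 in db/db kidneys, against 23.6, 28.9, 24.2 and 29.1 in control kidneys. The groups overlapped, since db/db replicate 1 lay above control replicates 1 and 3. On the log2 scale it averaged 4.49 ± 0.08 in db/db kidneys and 4.72 ± 0.16 in control kidneys (SD, n = 4 each). The change was -0.22 ± 0.08 (SE), with an unadjusted 95% interval of -0.42 to -0.03 (limma with Benjamini-Hochberg adjustment, adjusted p = 0.0646; unadjusted p = 0.0299). It was the member closest to the threshold, and the call turned on single arrays: the adjusted p was 0.0303 without control replicate 1 and 0.0494 without control replicate 3 (limma with Benjamini-Hochberg adjustment). Its change was -0.10 under no scaling and -0.04 with spike-in scaling. It was -0.13 after normexp with the offset and -0.16 after normexp without it, and passed under both (limma, Benjamini-Hochberg adjusted p = 0.0154 with and 0.0125 without the offset).

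The probes of miR-155-5p differed in how well they were measured. A_54_P2337 was well above background at 60 of 60 spots in db/db and 60 of 60 in control kidneys. It averaged 5.08 ± 0.06 in db/db kidneys and 5.32 ± 0.18 in control kidneys on the log2 scale (SD, n = 4 each), and its groups did not overlap. A_54_P2336 was well above background at 2 of 60 spots in db/db and 3 of 60 in control kidneys. It averaged 3.49 ± 0.24 in db/db kidneys and 3.68 ± 0.11 in control kidneys, and its groups overlapped.

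**Figure D2:**
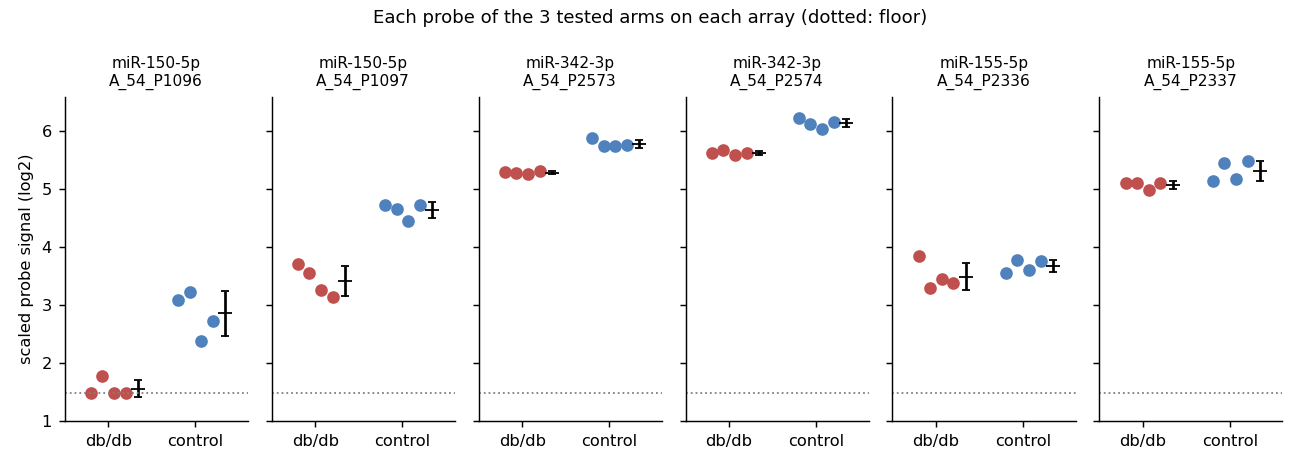
Scaled log2 signal of each probe of miR-150-5p, miR-342-3p and miR-155-5p on each array, db/db left of control, with mean and SD in black and the floor of 1.48 dotted. The groups overlap for A_54_P2336 of miR-155-5p and not for the other probes. Of all tested miRNAs, 41.5% were without overlap in either direction, and the share of all probes was not computed. For A_54_P1096 of miR-150-5p, most db/db arrays lie at the floor.

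The opposite arms gave no signal to compare. miR-150-3p, miR-342-5p and miR-155-3p were detected on 0 of 4 arrays in each group. Their scaled signals ran between -5.01 and -0.13 on db/db arrays and between -5.01 and 0.79 on control arrays, all under the floor of 2.80, so a change in them could not be seen on these arrays.

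Whether the 3 tested arms changed equally was asked within each array, where the scaling factor cancels. The ratio of miR-150-5p to miR-342-3p was lower in db/db kidneys by a log2 change of -0.88, and the ratio of miR-150-5p to miR-155-5p by -1.16. The ratio of miR-342-3p to miR-155-5p was also lower, by a log2 change of -0.28. In each of these 3 ratios the db/db and control arrays did not overlap (exact permutation test over 70 assignments, 2-sided, p = 0.0286, the smallest it can give; Benjamini-Hochberg adjusted over 6 ratios, 0.0343). The ratios with miR-150-5p rest on values below detection on 3 db/db arrays, of an arm tested through the controls alone, so these ratios are descriptions. The first of them was 0.019 after normexp with the offset and -0.089 after normexp without it, and passed under neither (adjusted p = 0.4 and 0.114 by the exact permutation test). The second passed under both, at -0.12 and -0.31. The third had adjusted p = 0.229 in the gene total signal and in the authors' value table, and 0.114 with quantile normalization, by the same exact permutation test.

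The members were also set against miR-142a-3p, an arm of a hairpin expressed in all leukocytes, which changed by -1.16 ± 0.16 (SE) on the log2 scale. Relative to miR-142a-3p, miR-342-3p was higher in db/db kidneys by 0.66 and miR-155-5p by 0.94, with no overlap of the groups (exact permutation test, 2-sided, p = 0.0286 each; adjusted over 6 ratios, 0.0343). Both calls held under all 16 alternatives that kept all arrays. Many of these cannot alter the value of a within-array ratio: scaling by a factor, the filter, the limma settings and the replicate block. Over all 16 the ratios lay between 0.62 and 0.68 for miR-342-3p and between 0.75 and 0.95 for miR-155-5p. The change of each of these 2 arms was thus smaller than that of miR-142a-3p. That arm comes from a list chosen with earlier results of these data known, so the tests against it are descriptions. The ratio of miR-150-5p to miR-142a-3p changed by -0.23, with SDs of 0.34 in db/db and 0.15 in control kidneys (n = 4 each), and did not pass (exact permutation test, 2-sided, p = 0.286). After normexp that ratio was 0.64 with the offset and 0.59 without it, and passed under both (exact permutation test, adjusted p = 0.0343 each), so its direction depended on the background treatment.

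The other leukocyte miRNAs listed were the arms of miR-142a, of miR-223, which is high in myeloid cells, and of miR-146a and miR-146b, which NF-kB signalling induces. Of these 8 arms 5 were tested, 4 fell, none rose and 1 did not pass, with a median change of -1.16 on the log2 scale. Of all tested miRNAs, 17.4% were called lower in db/db kidneys and 24.4% higher. This list was chosen with earlier results of these data known. miR-142a-5p changed by -1.43 and miR-223-3p by -0.83. miR-146a-5p changed by -1.49, while miR-146b-5p, at -0.02, was the one that did not pass. With quantile normalization miR-146b-5p was -0.23 and all 5 were called lower; under no scaling it was 0.11. The signal summed over the 8 arms was 237 to 345 in db/db kidneys and 572 to 745 in control kidneys. Its part in the changes of miR-150-5p and miR-342-3p was not tested.

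**Figure D3:**
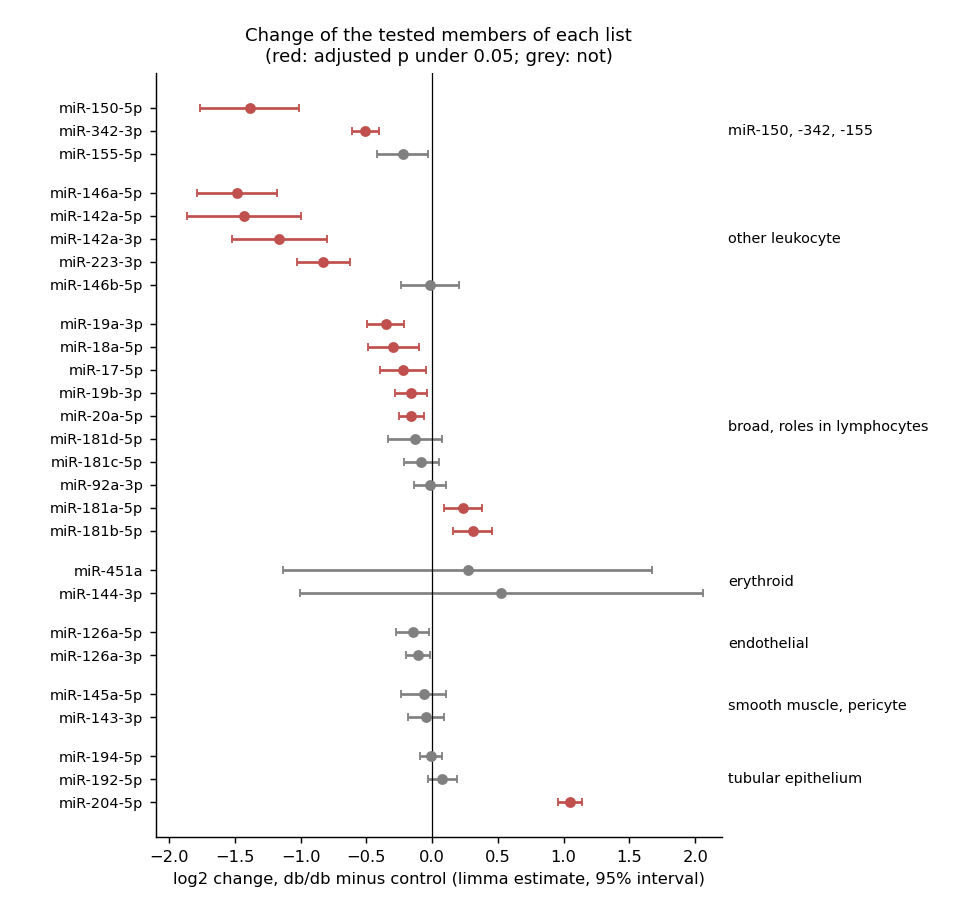
Log2 change, db/db minus control, with its 95% interval from limma, for every tested member of each list; red points passed the threshold and grey ones did not. With the processing as reported, miR-150-5p lies among the leukocyte miRNAs that changed most, and miR-342-3p and miR-155-5p lie nearer to 0. After normexp with the offset, miR-150-5p was -0.24, against -0.26 for miR-342-3p and -0.88 for miR-142a-3p.

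A second list held 10 broadly expressed miRNAs that have roles in lymphocytes but are not restricted to them, from the miR-17-92 cluster and the miR-181 family. All 10 were tested, of which 5 fell, 2 rose and 3 did not pass, with a median change of -0.14 on the log2 scale. The shares of all tested miRNAs called lower and higher were 17.4% and 24.4%. This list, too, was chosen with earlier results of these data known. The lowest of the 10 was miR-19a-3p, at -0.35 ± 0.06 (SE). The 2 that rose were miR-181a-5p and miR-181b-5p, by 0.23 and 0.31, miRNAs that set the sensitivity of the T cell receptor in developing T cells. Neither was called with the 75th percentile of all miRNAs or without a filter, and miR-181b-5p did not pass after normexp with the offset. The lower calls depended on the scaling: none of the 10 was called lower under no scaling, with spike-in scaling or with the 75th percentile of all miRNAs. The list's median was 0.035 with spike-in scaling, but -0.13 with the 75th percentile of all miRNAs, near the value as reported.

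Markers of other cells in the kidney were mostly not called. Of 4 erythroid miRNAs listed 2 were tested and neither passed, while miR-144-5p and miR-486a-5p were detected on too few arrays. The summed signal of the 4 ran from 649 to 3598 in db/db kidneys and from 708 to 3092 in control kidneys. Neither endothelial arm passed, miR-126a-3p with -0.11 and miR-126a-5p with -0.15, although their summed signal of 3648 to 3807 in db/db kidneys lay below that of 3913 to 4194 in control kidneys. Both passed as lower with limma's trend and robust settings. miR-126a-5p also passed as lower after normexp with and without the offset, in the authors' value table and with the replicate block. miR-126a-3p also passed as lower with detection on at least 1 array. Neither passed under the other settings that kept all arrays, and the median of both was 0.051 with spike-in scaling. Neither smooth muscle and pericyte miRNA passed, with summed signals of 452 to 508 in db/db and 452 to 519 in control kidneys. Of the 3 tubular miRNAs, miR-204-5p rose, by 1.05, and the other two did not pass, although miR-192-5p passed as higher with spike-in scaling, at 0.26. The summed signal of the 3 was 6395 to 6766 in db/db and 5970 to 6397 in control kidneys. All of these markers were detected on at least 1 array of each group. The part of these markers in the results was not tested.

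The patterns over the 8 arrays most like those of the members were found as the smallest root mean square difference of log2 values, after each miRNA was centred on its own mean. For miR-150-5p these were miR-146a-5p at a difference of 0.14, miR-142a-5p at 0.22 and miR-8102 at 0.24, against a spread of miR-150-5p around its own mean of 0.73. For miR-342-3p they were miR-199a-3p, miR-214-3p and miR-6769b-5p, at 0.06, 0.07 and 0.10 against its own 0.26. miR-199a and miR-214 are known from stromal cells and fibroblasts. For miR-155-5p they were miR-125b-5p, miR-338-3p and miR-100-5p, at 0.07, 0.08 and 0.09 against its own 0.16. With the processing as reported, the nearest miRNAs thus included 2 of the listed leukocyte arms for miR-150-5p and none for miR-342-3p or miR-155-5p. Likeness was not computed under other settings, and miR-150-5p was detected on 1 db/db array. After normexp with the offset the changes were -0.24 for miR-150-5p, -0.84 for miR-146a-5p and -0.46 for miR-142a-5p. miR-8102 averaged 1.52 in db/db kidneys, near the floor of 1.48.

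**Figure D4:**
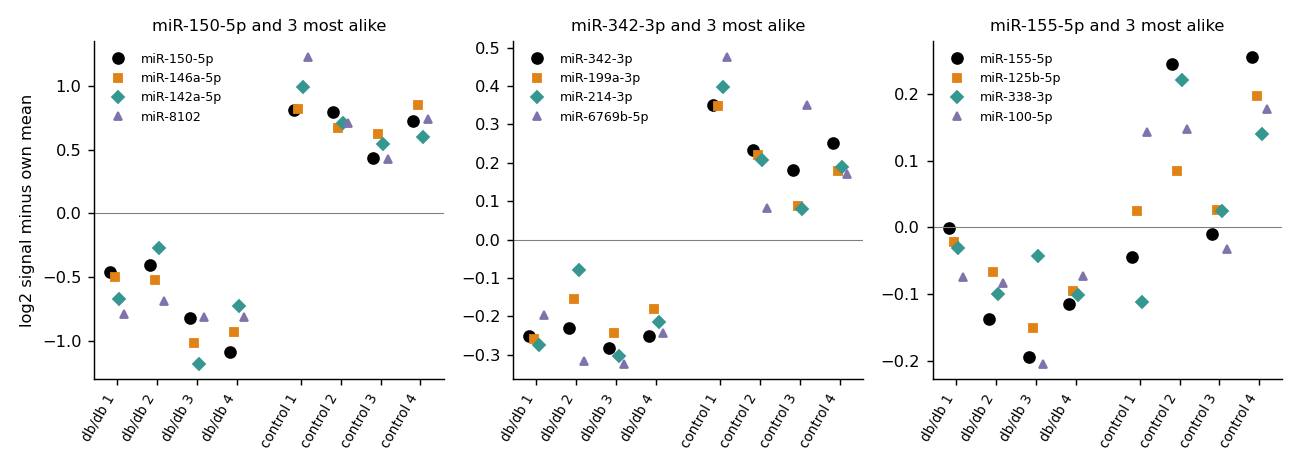
Log2 signal minus its own mean over the 8 arrays for each tested member (black circles) and the 3 miRNAs most like it, db/db arrays left of control arrays; the vertical scales differ between panels. Each member of the left and middle panels, with its 3 neighbours, lies below 0 in db/db and above 0 in control kidneys, while in the right panel the groups overlap for miR-155-5p.

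The processing settings tried are shown together for the 3 tested arms. The fitted change of miR-342-3p lay between -0.55 and -0.26, and its call was lost under 1 setting, scaling to the 75th percentile of all 1881 miRNAs (limma, Benjamini-Hochberg adjusted p = 0.245). That setting called 11 miRNAs lower in all. Under it the change of miR-342-3p was -0.49 with an SE of 0.25, against an SE of 0.05 as reported. The SE under that setting was the same for miR-150-5p and miR-155-5p. The call of miR-150-5p held under all 15 settings that tested it with all arrays kept. It was not tested when detection on all 8 arrays was required. As reported, it entered the test through the controls alone, so its calls are descriptions. With any single array left out, the change of miR-150-5p lay between -1.48 and -1.25, and that of miR-342-3p between -0.53 and -0.47. Every call of both arms was kept.

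**Figure D5:**
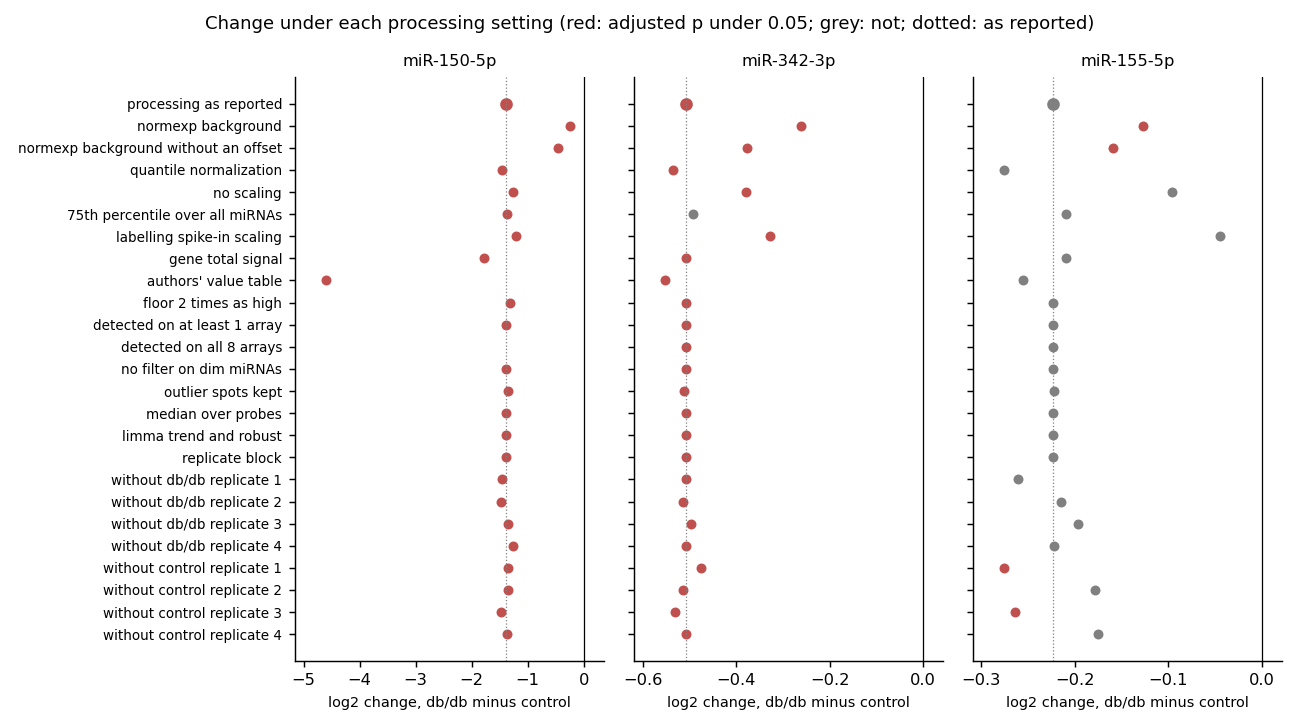
Fitted log2 change, db/db minus control, of miR-150-5p, miR-342-3p and miR-155-5p under each processing setting, with red where the adjusted p was under 0.05; the horizontal scales differ between panels and the dotted line marks the processing as reported. All points lie below 0, and miR-155-5p passes under 4 settings.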

How the data were processed

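The scanner files, as deposited, give an intensity for each spot. Per the file headers, they were made with Feature Extraction version 12.0.3.1, with spatial detrending on and background correction off. The value table deposited by the authors holds a linear ratio per miRNA and array, whose scaling and centring are not given in the sources used here; it was used as an alternative only. The medians of its columns were 0.857, 1.01, 0.994 and 0.947 for db/db replicates and 1.11, 1.10, 1.10 and 0.980 for control replicates 1 to 4.

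Processed signals of non-outlier spots were averaged per probe, and probe means per miRNA. Arrays were scaled to an equal 75th percentile over the 269 miRNAs detected on all 8 arrays. Values under a floor of 2.80 were set to it before log2 was taken. Testing took the 316 miRNAs with detection on every array of either group or both, using limma 3.58.1 in R 4.3.3 (lmFit, eBayes), with Benjamini-Hochberg adjustment over all of them, 2-sided, at 0.05. Ratios between miRNAs used an exact permutation test. Alternatives covered background (normexp with an offset of 50, and without one), scaling, filter, floor, summary of probes, the authors' value table, a replicate block and each array left out. Files were read with jsonlite 2.0.0 and data.table (1.17.8). The number of arrays limits the precision. The fit was tested on simulated data.

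All 6 members were named, with the members of 6 lists and the 3 tested miRNAs most alike in pattern to each tested member. The members and lists were chosen with earlier results of these data known.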

Additional observations from a re-analysis of the deposited data

Results flagged for a closer look

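In 68 groups of 4 arrays looked at, 3 had an array far from the other 3. That share is near the 1 in 20 that chance gives. miR-100-5p, a miRNA alike in pattern to miR-155-5p, had a gap of 0.929 of its range in db/db kidneys, where replicate 3 lay at 6.54 and the nearest other array at 6.67 on the log2 scale. In control kidneys its gap was 0.833 of its range, with replicate 3 at 6.72 and the nearest at 6.89. miR-92a-3p, of the miR-17-92 cluster, had a gap of 0.868 of its range in db/db kidneys, with replicate 3 at 7.83 and the nearest at 7.92. No such array was found for miR-150-5p, miR-342-3p or miR-155-5p.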

How the results depend on the processing

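The direction of miR-150-5p, miR-342-3p and miR-155-5p was lower in db/db kidneys in every setting run. The median over the 316 tested miRNAs was -0.02 as reported, 0.10 without scaling and 0.15 with spike-in scaling. Measured from it, their changes were -1.36, -0.48 and -0.20 under all 3. That equality is arithmetic and no test, since these settings differ only by a factor per array. After normexp with an offset of 50, miR-155-5p was -0.13, and the ratios of miR-150-5p to miR-342-3p and to miR-142a-3p turned to 0.019 and 0.64. After normexp without an offset, chosen after seeing the data, these 3 values were -0.16, -0.089 and 0.59. The ratio of miR-342-3p to miR-155-5p no longer passed with quantile normalization (-0.26), the gene total signal (-0.30) or the authors' value table (-0.30). With the 75th percentile over all miRNAs, miR-342-3p was -0.49 and did not pass, and 23 miRNAs were called higher and 11 lower, against 77 and 55 as reported. The lower calls numbered 28 with no scaling, 28 with spike-in scaling, where 138 were higher, and 27 without a filter. The share of higher calls was 58.3% as reported, 48.8% after normexp, 46.6% with quantile normalization, 78.1% with no scaling, 83.1% with spike-in scaling and 72.2% without a filter. The causes were not tested.

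With single arrays left out, calls numbered 70 to 83 higher and 42 to 56 lower, and miR-155-5p ranged from -0.28 to -0.18, passing without control replicate 1 or 3. The ratios were then given without a test, since the smallest p is 0.0571. With the replicate number as a block, no call of the 3 arms changed (limma with Benjamini-Hochberg adjustment, adjusted p = 0.00404 for miR-150-5p, 0.00318 for miR-342-3p and 0.0930 for miR-155-5p) and 144 miRNAs were called, against 132. Deviations of same-numbered arrays correlated at -0.43, 0.41, -0.05 and -0.07 across miRNAs, which are not independent, so whether the numbers pair the samples was not settled. Same-numbered arrays lay in the same column of the slide. A slide block was not run, since there was 1 slide. As reported, miR-150-5p entered the test through the controls alone, so its calls here are descriptions. It was not tested when detection on all 8 arrays was required. Low signal limits miR-150-5p, detected on 1 db/db array, and the 3 arms detected on none.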
